A study of Mus musculus with 36 samples.

Results

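The genes that encode matrix metalloproteases (MMPs), ADAMTS proteases, ADAMTS-like proteins and the tissue inhibitors of metalloproteases (TIMPs) were followed in the left ventricle of mice after myocardial infarction (MI). They were taken from the deposited gene table by symbol, as all rows that begin with Mmp, Adamts or Adamtsl and a number, or that consist of Timp and a number. This gave 44 of the 16415 genes in the table, of which 17 encode MMPs, 18 ADAMTS proteases, 5 ADAMTS-like proteins and 4 TIMPs. The mice were C57BL/6 animals in which the left anterior descending coronary artery was ligated (MI) or which had a sham operation. Left ventricles were collected at 3 times after surgery, which were 1 day, 1 week or 8 weeks. RNA was sequenced from 3 libraries per group and time, 18 libraries in all. The RNA of a library came from pooled left ventricles, and the number of animals in each pool was not given. The p-values below therefore measure only the spread between these libraries, taken over all 6 groups together. All groups share the same strain, and the labels name no genetic change.

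The extracellular matrix of the heart is a mesh of collagen, elastic fibres and proteoglycans that surrounds the muscle cells. MMPs are zinc-dependent proteases, secreted or held on the cell membrane, that are made as inactive precursors and together can cut most matrix proteins. TIMPs bind the active site of these enzymes and block it. ADAMTS proteases are secreted relatives that cut proteoglycans such as versican, trim procollagens or process the microfibrils around elastic fibres, and the ADAMTS-like proteins share their accessory domains but have no protease domain. After an infarct, neutrophils, then macrophages, and then activated fibroblasts enter or expand in the damaged muscle, and each of these cell types is known to make some of these enzymes.

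Expression was given as FPKM, the number of fragments of a gene scaled by the length of its transcript and by the mapped fragments of the library. The files give no counts, so the depth of the libraries is unknown. Changes were tested with limma on log2(FPKM + 1) in the 12858 genes that reached 1 FPKM in 3 or more libraries. All 6 groups shared 1 estimate of the spread of a gene, so its standard error does not follow the spread at a single stage. The median SD of the tested members, in percent of the mean, was 46.7% in MI at 8 weeks and 14.5% to 18.2% in all other groups. Over all tested genes it was 23.5% and 6.41% to 10.4%. Values below are listed in the order of the 3 replicates. A log2 fold change is on this log2(FPKM + 1) scale with its standard error after ±. The adjusted p is that of limma with Benjamini-Hochberg adjustment over all 12858 genes, and a gene was called where it was below 0.05. The median log2 fold change of all tested genes was 0.09 at 1 day, 0.79 at 1 week and 0.52 at 8 weeks, so changes at the later stages are also given relative to that median gene. In bulk tissue, fewer cells of a type and less RNA per cell cannot be told apart. The cardiomyocyte markers were present in all libraries. These 8 genes summed to between 23781 and 27742 FPKM in sham and to between 1543 and 4744 FPKM in MI at 1 week. In the 3 MI libraries at 8 weeks they summed to 21611, 14752 and 8778 FPKM. In the third of these 8-week MI libraries, 5 adipocyte markers summed to 1373 FPKM, against 1.89 and 314 FPKM in the other 2. The skeletal muscle, mesothelial and lymphocyte markers were also highest there, at 216, 200.4 and 18.6 FPKM. This library gave the highest value of its group for 36 of the 40 tested members (90.0%) and for 74.7% of all tested genes, so the values without it are given beside the results at 8 weeks whose call changed when it was left out.

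At 1 day, 15 of the 40 tested members rose and 10 fell, where 39.7% and 30.6% of all tested genes did. At 1 week, 35 rose and 3 fell (72.8% and 16.5% of all tested genes), and at 8 weeks 32 rose and 2 fell (70.4% and 10.6%). The median log2 fold change of the members was 0.00 at 1 day, 1.65 at 1 week and 0.93 at 8 weeks, beside 0.09, 0.79 and 0.52 over all tested genes. The counts moved with the scaling of the libraries. With median-ratio factors, which set the median gene level between libraries, the members that rose and fell in the 3 stages numbered 15 and 13, 28 and 4, and 26 and 4. Of the 12858 tested genes, 5121 and 4782, 5356 and 5088, and 4452 and 4899 did so. Quantile normalization gave 14 and 13, 27 and 5, and 22 and 5 members. Over all tested genes these numbers were 4396 and 5401, 5311 and 5101, and 3976 and 5120. Over all genes called at 1 week, 81.5% were higher in MI as deposited, 51.3% with median-ratio factors and 51.0% with quantile normalization. The same shares were 56.5%, 51.7% and 44.9% at the first stage and 87%, 47.6% and 43.7% at the last. Without the third MI library at 8 weeks, 28 members rose and 3 fell at that stage, and the shares of all tested genes in that fit are not given here. Of the 40, 11 members rose at each stage, 11 rose at 1 week and 8 weeks but were not called at 1 day, 7 fell at 1 day and rose at both later stages, and Mmp15 and Timp4 fell at each stage. The shares of all tested genes with these patterns are not given here, so the patterns are not set apart from the general shift.

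**Figure D1:**
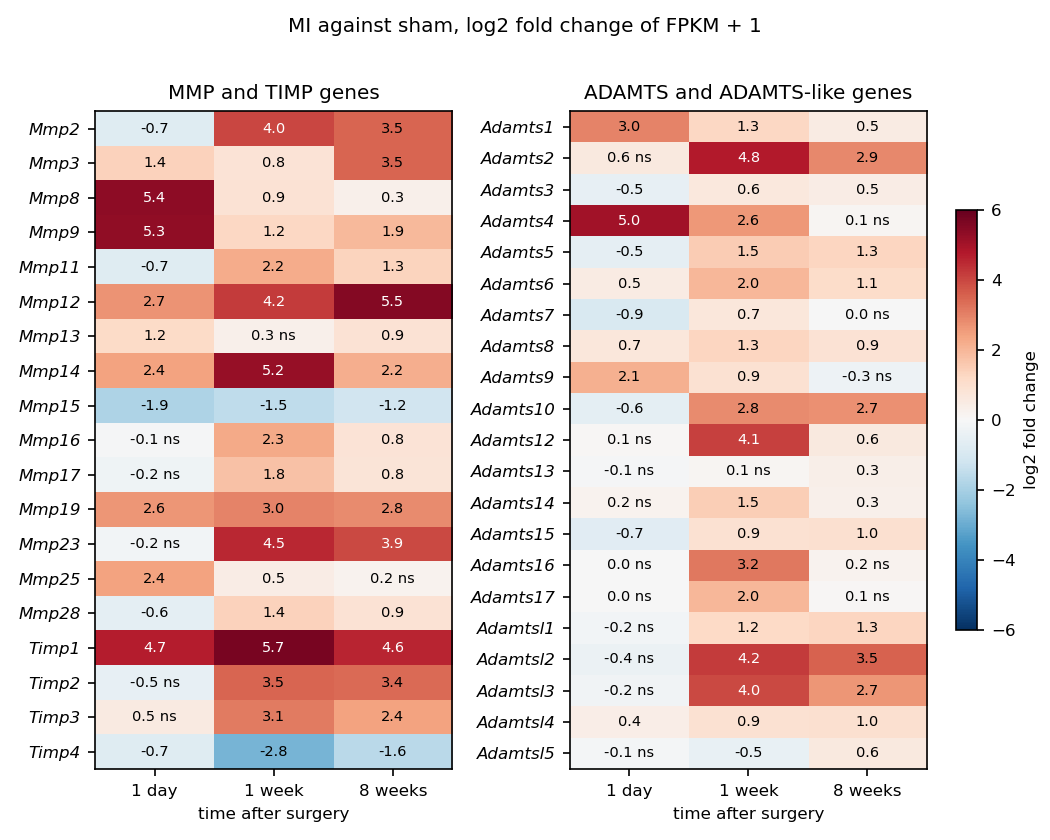
Log2 fold change of FPKM + 1 between MI and sham (colour and number) for the 40 tested members in rows and the 3 times after surgery in columns, with ns where the adjusted p was not below 0.05. On this scale, which damps changes of genes near 0 FPKM, the largest rise of each column belongs to a different gene: Mmp8 at 5.38 at 1 day, Timp1 at 5.70 at 1 week and Mmp12 at 5.49 at 8 weeks.

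Whether the effect of MI differed between stages was tested directly, as the difference of the log2 fold changes. From 1 day to 1 week the effect was higher for 26 members and lower for 8 (60.0% and 11.8% of all tested genes). From 1 week to 8 weeks it was higher for 5 and lower for 16 (17.1% and 29.9%), and between 1 day and 8 weeks it was higher for 23 and lower for 7 (51.8% and 11.9%). A rise that exceeded that of both other stages, by these tests, was found for 6 members at 1 day (6.35% of all tested genes), for 12 at 1 week (22.6%) and for 3 at 8 weeks (4.57%). The genes with their larger rise at 1 day were Mmp8, Mmp9, Mmp25, Adamts1, Adamts4 and Adamts9. Those at 1 week were Mmp11, Mmp14, Mmp16, Mmp17, Adamts2, Adamts6, Adamts7, Adamts12, Adamts14, Adamts16, Adamts17 and Adamtsl3, and those at 8 weeks were Mmp3, Mmp12 and Adamtsl5. The places of Adamtsl5, Adamts7 and Adamtsl3 depended on the processing. For Adamtsl5, the difference between 8 weeks and 1 day (0.72, limma adjusted p = 0.0070) was not called with median-ratio factors (0.13, adjusted p = 0.70) or quantile normalization (0.41, adjusted p = 0.21). The rise of Adamts7 at 1 week was not called with either of these scalings. The difference of Adamtsl3 between 8 weeks and 1 week was lost with a pseudocount of 0.1 (adjusted p = 0.059) and without some single libraries. Without the third MI library at 8 weeks, 26 members in place of 16 had a lower effect at 8 weeks than at 1 week, and 21 in place of 12 had their larger rise at 1 week. The shares of all tested genes in that fit are not given here, so this change is not read as a result about the members.

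**Figure D2:**
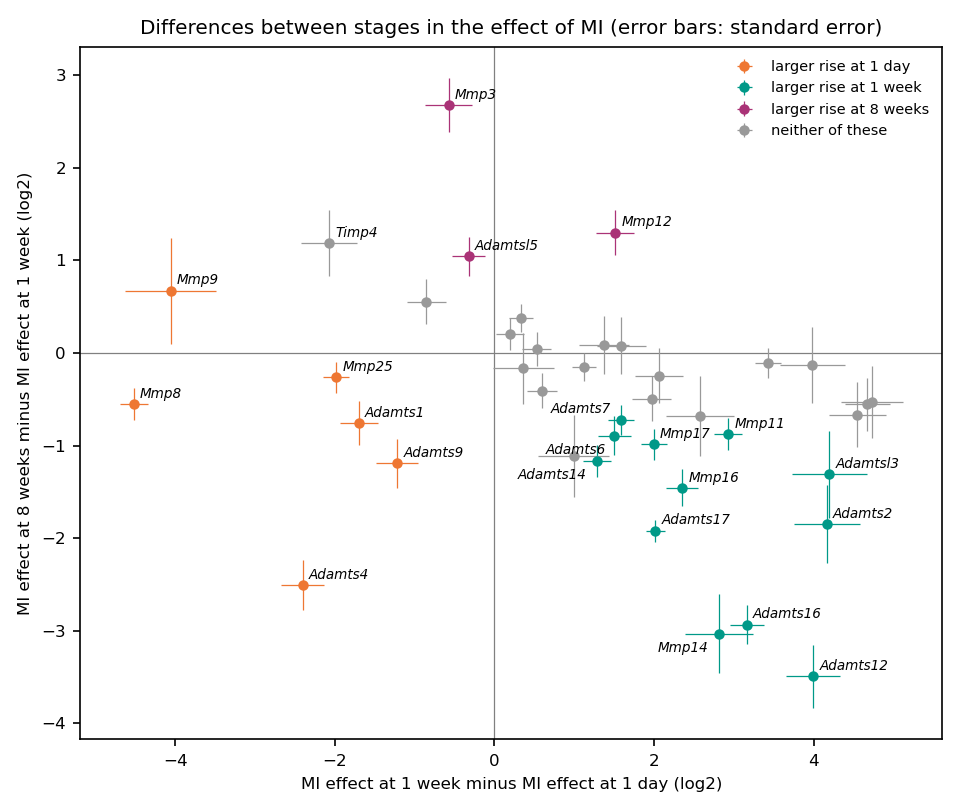
Each point is 1 of the 40 tested members, with the difference in the effect of MI between 1 week and 1 day on the x axis and between 8 weeks and 1 week on the y axis, both in log2 units, and bars for the standard error. Genes with the larger rise at 1 day lie on the left, led by Mmp8 at -4.52, those at 1 week lie at the lower right, led downwards by Adamts12 at -3.49, and Mmp3 lies highest at 2.67.

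The stage with the highest log2 fold change was different among MMP genes that lie close together on chromosome 9. Mmp13, Mmp12, Mmp3, Mmp8 and Mmp27 lie between positions 7272514 and 7581885 of the GRCm38.p6 mouse build (the same build as mm10, to which the reads were mapped). To show how alike or unlike their start regions are, the 250 bases before the annotated start of the 4 tested genes are printed here from RefSeq, 5′ to 3′ on the plus strand, which all 4 use. Capitals mark a match to TGANTCA, the binding motif of AP-1, a transcription factor of growth and inflammatory signals, which reads the same on both strands. Mmp12 has 2 annotated starts, and both are shown.
Mmp13, chr9:7272264-7272513: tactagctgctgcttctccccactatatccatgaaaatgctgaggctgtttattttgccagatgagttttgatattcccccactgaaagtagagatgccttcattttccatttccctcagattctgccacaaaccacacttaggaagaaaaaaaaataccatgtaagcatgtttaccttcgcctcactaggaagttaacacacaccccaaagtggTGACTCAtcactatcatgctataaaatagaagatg
Mmp12, first start, chr9:7344147-7344396: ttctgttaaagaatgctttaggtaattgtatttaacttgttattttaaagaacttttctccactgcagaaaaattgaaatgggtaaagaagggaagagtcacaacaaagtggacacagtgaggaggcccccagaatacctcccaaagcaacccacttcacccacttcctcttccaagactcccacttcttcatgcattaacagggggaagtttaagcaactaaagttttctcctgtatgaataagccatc
Mmp12, second start, chr9:7347124-7347373: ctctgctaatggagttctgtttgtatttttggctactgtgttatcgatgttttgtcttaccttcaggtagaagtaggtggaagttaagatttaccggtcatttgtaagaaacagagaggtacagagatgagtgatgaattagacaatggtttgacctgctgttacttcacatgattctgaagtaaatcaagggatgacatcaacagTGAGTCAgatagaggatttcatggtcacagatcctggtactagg
Mmp3, chr9:7445572-7445821: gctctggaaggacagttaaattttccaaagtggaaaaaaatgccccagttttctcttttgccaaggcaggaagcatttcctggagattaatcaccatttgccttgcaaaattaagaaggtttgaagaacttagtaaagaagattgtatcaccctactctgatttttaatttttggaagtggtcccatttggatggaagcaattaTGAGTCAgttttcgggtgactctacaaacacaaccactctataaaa
Mmp8, chr9:7558179-7558428: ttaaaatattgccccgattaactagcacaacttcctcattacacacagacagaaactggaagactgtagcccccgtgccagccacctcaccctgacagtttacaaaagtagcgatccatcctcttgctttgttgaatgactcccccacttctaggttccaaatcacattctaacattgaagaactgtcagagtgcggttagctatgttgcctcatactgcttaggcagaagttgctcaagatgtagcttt
The motif stands 35 bases before the start of Mmp13, 46 bases before that of Mmp3 and 44 bases before the second start of Mmp12, and it is not in the windows of Mmp8 or of the first start of Mmp12. It occurs in 2217 of 32851 such RefSeq windows (6.75%). A promoter was found for 29 of the 44 members, in 31 windows, and the windows of the other members hold no match.

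Mmp8 encodes the collagenase that neutrophils store in their granules, and it had the highest rise of the members at 1 day. At 1 day, Mmp8 was at 0.102, 0.108 and 0.168 FPKM in sham and at 56.3, 41.8 and 40.9 FPKM in MI. Mmp8 was higher in each MI library, at a log2 fold change of 5.38 ± 0.12 (adjusted p = 4.0e-14). The lowest MI library, at 40.9 FPKM, stood far above the highest sham library, at 0.168 FPKM. Mmp8 had 0.0485, 0.0732 and 0.263 FPKM in sham at 1 week and 1.12, 1.14 and 0.867 FPKM in MI. For Mmp8, all MI libraries lay above all sham libraries, with a log2 fold change of 0.86 ± 0.12 (0.07 against the median gene, adjusted p = 7.0e-06). Sham values of Mmp8 at 8 weeks were 0.0118, 0.153 and 0.118 FPKM, and those of MI were 0.245, 0.265 and 0.563 FPKM. Mmp8 did not overlap between the groups and had a log2 fold change of 0.31 ± 0.12 (-0.22 against the median gene, adjusted p = 0.033). The small rise at 8 weeks was not called without the first or the third sham library, with median-ratio factors (0.18) or quantile normalization (0.02), or without the third MI library (0.20, adjusted p = 0.15, in a range of 0.0039 to 0.91 over the alternatives). A fit of that stage alone did not call this rise either (0.31, adjusted p = 0.065). The effect fell from 1 day to 1 week (difference -4.52 ± 0.18, adjusted p = 1.2e-10). Neutrophil markers moved in the same direction. The 9 genes, among them S100a8 and S100a9, summed to between 6162 and 10024 FPKM in MI at 1 day. They summed to 18.3 to 37.9 FPKM in sham at that stage and to 46.0 to 72.1 FPKM in MI at 1 week, and their part in the result was not tested. Exons of Mmp8 share 185 bases with Gm31751 on the opposite strand, and the sources used here do not give whether reads were counted by strand.

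Mmp13 encodes another collagenase, which is best known from cartilage and bone. Its mean was 0.383 ± 0.124 FPKM in sham and 2.13 ± 0.607 FPKM (mean ± SD, n = 3) in MI at 1 day, where it rose (log2 fold change 1.16 ± 0.17, adjusted p = 1.7e-05). It was 0.341 ± 0.126 and 0.661 ± 0.136 FPKM at 1 week (log2 fold change 0.31 ± 0.17, -0.48 against the median gene, adjusted p = 0.099) and 0.277 ± 0.0896 and 1.38 ± 0.722 FPKM at 8 weeks, where it rose (log2 fold change 0.86 ± 0.17, 0.34 against the median gene, adjusted p = 3.0e-04). Among the members, Mmp13 alone rose at 1 day and 8 weeks and was not called at 1 week. The effect at 1 week was lower than at 1 day (difference -0.85 ± 0.24, adjusted p = 0.0055), and the difference between 8 weeks and 1 week was not called (difference 0.55 ± 0.24, adjusted p = 0.073), although it was with median-ratio factors, with quantile normalization and without the first or the second MI library at 8 weeks (adjusted p from 0.023 to 0.15 over the alternatives).

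Mmp12 encodes macrophage metalloelastase, which cuts elastin, and its rise grew from stage to stage. Mmp12 at 1 day was at 0.151, 0.119 and 0.199 FPKM in sham and 5.58, 6.55 and 7.19 FPKM in MI. MI libraries of Mmp12 were all higher than sham, and the log2 fold change was 2.68 ± 0.17 (adjusted p = 1.5e-09). At 1 week, Mmp12 was at 0.0883, 0.0969 and 0.0791 FPKM in sham and at 16.3, 15.8 and 26.0 FPKM in MI. Mmp12 was above sham in every MI library, with a log2 fold change of 4.19 ± 0.17 (3.40 against the median gene, adjusted p = 2.6e-11). Mmp12 had 0.125, 0.0184 and 0.130 FPKM in sham at 8 weeks and 54.3, 36.6 and 55.3 FPKM in MI. Mmp12 was higher in each MI library, at a log2 fold change of 5.49 ± 0.17 (4.96 against the median gene, adjusted p = 4.3e-12). The highest sham value of all stages was 0.199 FPKM and the lowest MI value 5.58 FPKM. Mmp12 had a higher effect at 1 week than at 1 day (difference 1.51 ± 0.24, adjusted p = 4.6e-05) and a higher effect at 8 weeks than at 1 week (difference 1.30 ± 0.24, adjusted p = 6.9e-04). The macrophage markers did not follow this order: 9 genes summed to between 161 and 198 FPKM in MI at 1 day, 1647 to 1868 FPKM at 1 week and 387 to 827 FPKM at 8 weeks, against 81.9 to 145 FPKM in all sham libraries.

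Mmp3 encodes stromelysin-1, which cuts proteoglycans and many other matrix proteins and can activate other MMP precursors. Sham values of Mmp3 at 1 day were 3.24, 2.91 and 4.20 FPKM, and those of MI were 9.43, 11.8 and 10.4 FPKM. For Mmp3, all MI libraries lay above all sham libraries, with a log2 fold change of 1.38 ± 0.21 (adjusted p = 1.9e-05). Mmp3 at 1 week was at 1.69, 1.39 and 1.80 FPKM in sham and 3.19, 3.44 and 4.18 FPKM in MI. Mmp3 did not overlap between the groups and had a log2 fold change of 0.81 ± 0.21 (0.01 against the median gene, adjusted p = 0.0016). At 8 weeks, Mmp3 was at 1.05, 1.14 and 1.62 FPKM in sham and at 15.2, 28.1 and 32.8 FPKM in MI. MI libraries of Mmp3 were all higher than sham, and the log2 fold change was 3.48 ± 0.21 (2.95 against the median gene, adjusted p = 3.0e-09). Its effect was then higher than at 1 week (difference 2.67 ± 0.29, adjusted p = 2.1e-05) and than at 1 day (difference 2.10 ± 0.29, adjusted p = 1.8e-05). The rise at 1 week was close to that of the median gene, and it was not called with median-ratio factors (0.12) and turned to -0.06 with quantile normalization. Mmp11 encodes stromelysin-3, which is activated inside the cell. Mmp11 had 1.88, 1.78 and 2.29 FPKM in sham at 1 day and 0.826, 0.822 and 0.828 FPKM in MI. Mmp11 was below sham in every MI library, with a log2 fold change of -0.70 ± 0.12 (adjusted p = 1.0e-04). Sham values of Mmp11 at 1 week were 1.62, 1.97 and 1.95 FPKM, and those of MI were 13.1, 11.0 and 12.7 FPKM. Mmp11 was higher in each MI library, at a log2 fold change of 2.22 ± 0.12 (1.43 against the median gene, adjusted p = 4.4e-10). Mmp11 at 8 weeks was at 1.44, 1.53 and 1.19 FPKM in sham and 4.18, 4.65 and 6.64 FPKM in MI. For Mmp11, all MI libraries lay above all sham libraries, with a log2 fold change of 1.35 ± 0.12 (0.82 against the median gene, adjusted p = 1.9e-07). Thus Mmp11 fell at 1 day where Mmp3 rose, and its effect was higher at 1 week than at 1 day (difference 2.93 ± 0.18, adjusted p = 5.1e-09) and lower at 8 weeks than at 1 week (difference -0.88 ± 0.18, adjusted p = 0.0012).

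The 2 gelatinases, which cut denatured collagen and basement membrane collagen, were high at different stages. Mmp9 encodes gelatinase B, a known product of neutrophils and macrophages. At 1 day, Mmp9 was at 0.501, 1.12 and 0.910 FPKM in sham and at 53.3, 99.4 and 68.5 FPKM in MI. Mmp9 did not overlap between the groups and had a log2 fold change of 5.31 ± 0.41 (adjusted p = 1.2e-08). Mmp9 had 0.359, 0.324 and 0.308 FPKM in sham at 1 week and 2.02, 3.25 and 1.46 FPKM in MI. MI libraries of Mmp9 were all higher than sham, and the log2 fold change was 1.25 ± 0.41 (0.46 against the median gene, adjusted p = 0.0087). This rise was not called with median-ratio factors (0.75) or quantile normalization (0.56). Sham values of Mmp9 at 8 weeks were 0.125, 0.190 and 0.129 FPKM, and those of MI were 1.77, 1.61 and 10.4 FPKM. Mmp9 was above sham in every MI library, with a log2 fold change of 1.92 ± 0.41 (1.40 against the median gene, adjusted p = 4.8e-04). Without the third MI library, which was the high one, the log2 fold change was lower (1.23, adjusted p = 1.7e-04). The effect at 1 week was lower than at 1 day (difference -4.06 ± 0.57, adjusted p = 1.6e-05).

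Mmp2 encodes gelatinase A, which fibroblasts make and which is activated at the cell surface by the product of Mmp14 together with that of Timp2. Mmp2 at 1 day was at 9.76, 11.8 and 14.2 FPKM in sham and 6.31, 7.26 and 6.71 FPKM in MI. Mmp2 was lower in each MI library, at a log2 fold change of -0.72 ± 0.28 (adjusted p = 0.028). This fall was not called when any 1 of 4 libraries of that stage was left out, among them the third sham library (-0.60, adjusted p = 0.10, in a range of 5.1e-04 to 0.10 over the alternatives). That sham library was the highest of its group for 31 of the 40 tested members (77.5%) and for 55.6% of all tested genes. At 1 week, Mmp2 was at 16.1, 13.9 and 14.6 FPKM in sham and at 262, 264 and 234 FPKM in MI. For Mmp2, all MI libraries lay above all sham libraries, with a log2 fold change of 4.0 ± 0.28 (3.21 against the median gene, adjusted p = 2.5e-09). Its mean at 1 week was the highest of any MMP at that stage. Mmp2 had 10.2, 9.82 and 9.10 FPKM in sham at 8 weeks and 63.5, 121 and 215 FPKM in MI. Mmp2 did not overlap between the groups and had a log2 fold change of 3.48 ± 0.28 (2.95 against the median gene, adjusted p = 4.8e-08). Of the 8-week MI libraries the first was lowest and the third highest. Mmp2 had a higher effect at 1 week than at 1 day (difference 4.73 ± 0.39, adjusted p = 9.0e-08), and that at 8 weeks did not pass the test against 1 week (difference -0.53 ± 0.39, adjusted p = 0.27). Without the third MI library at 8 weeks that difference was called (-0.95 ± 0.26, adjusted p = 0.0043, in a range of 0.0043 to 0.80 over the alternatives). Activated fibroblast markers had the same order among the 8-week MI libraries: 7 genes, among them Postn and Col1a1, summed to 428, 762 and 1877 FPKM there. They summed to 10255 to 12712 FPKM in MI at 1 week, against 45.3 to 164 FPKM in all sham libraries and 135 to 152 FPKM in MI at 1 day. The order of the 8-week MI libraries was not particular to activated fibroblast markers. It was shared by resting fibroblast (823, 1779 and 2263 FPKM) and macrophage markers (387, 465 and 827 FPKM). Mural, cartilage and tendon, adipocyte, mesothelial and lymphocyte markers had it too, while neutrophil, endothelial, skeletal muscle and cardiomyocyte markers did not. The part of any of these markers in the result was not tested. Exons of Mmp2 share 612 bases with Gm45472 on the opposite strand.

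**Figure D3:**
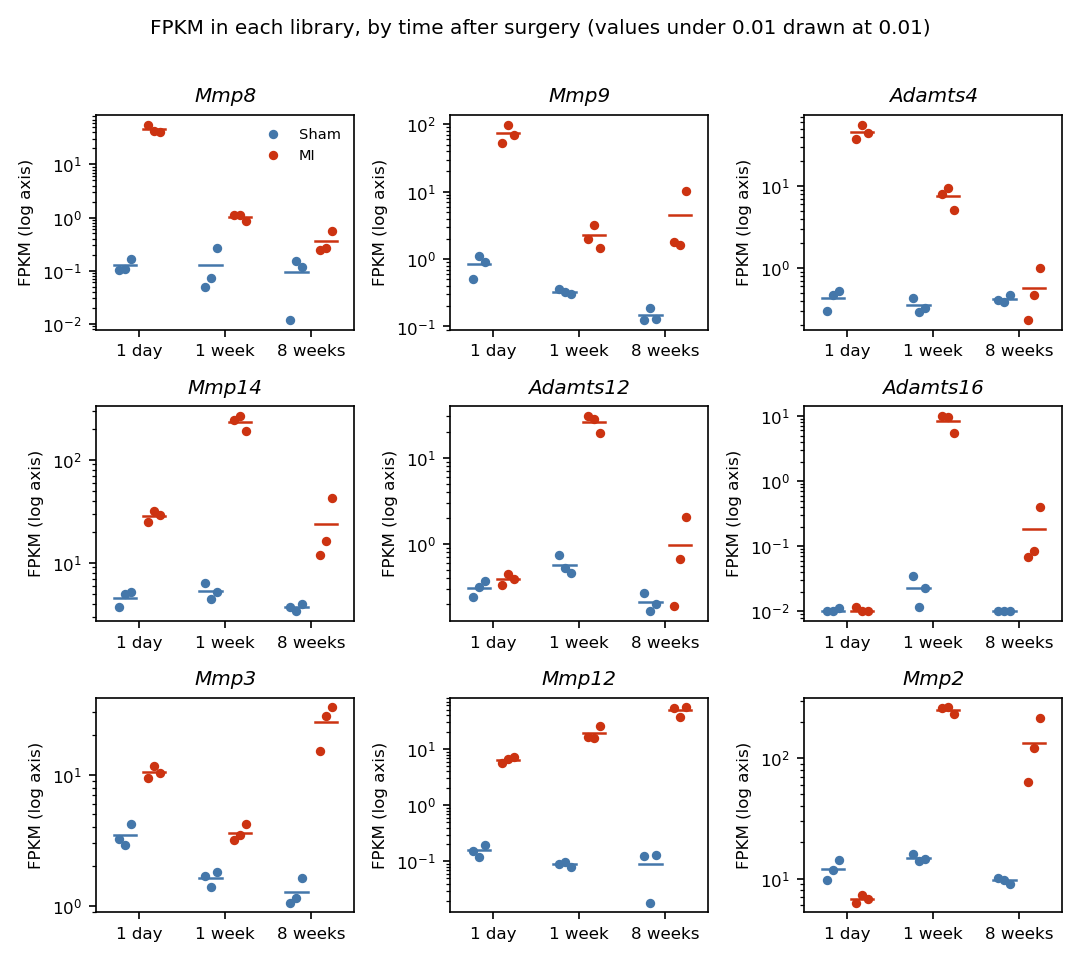
FPKM (log axis) of 9 members in each library at the 3 times after surgery, with sham in blue, MI in red and a line at the mean of 3 libraries. In the top row (Mmp8, Mmp9, Adamts4) the MI points are highest at 1 day, in the middle row (Mmp14, Adamts12, Adamts16) at 1 week, and Mmp3 and Mmp12 in the bottom row are highest at 8 weeks.

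Of the membrane-bound MMPs, Mmp14 rose at each stage and Mmp15 fell at each stage. Mmp14 encodes MT1-MMP, a transmembrane collagenase that activates the Mmp2 product. Sham values of Mmp14 at 1 day were 3.73, 4.92 and 5.15 FPKM, and those of MI were 24.6, 32.0 and 28.9 FPKM. MI libraries of Mmp14 were all higher than sham, and the log2 fold change was 2.40 ± 0.30 (adjusted p = 3.0e-06). Mmp14 at 1 week was at 6.33, 4.42 and 5.25 FPKM in sham and 245, 266 and 191 FPKM in MI. Mmp14 was above sham in every MI library, with a log2 fold change of 5.21 ± 0.30 (4.42 against the median gene, adjusted p = 5.8e-10). At 8 weeks, Mmp14 was at 3.73, 3.38 and 4.02 FPKM in sham and at 11.8, 16.4 and 42.4 FPKM in MI. Mmp14 was higher in each MI library, at a log2 fold change of 2.18 ± 0.30 (1.66 against the median gene, adjusted p = 1.0e-05). Mmp14 had a higher effect at 1 week than at 1 day (difference 2.81 ± 0.43, adjusted p = 3.1e-05) and a lower effect at 8 weeks than at 1 week (difference -3.03 ± 0.43, adjusted p = 1.3e-04). Without the third MI library, the log2 fold change at 8 weeks was lower (1.67, adjusted p = 6.1e-07).

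Mmp15 encodes the related MT2-MMP and was the most abundant MMP in all 9 sham libraries, with 33.3% to 50.6% of the summed MMP level. It fell at 1 day, from 16.2, 14.9 and 16.6 FPKM in sham to 3.41, 3.40 and 4.19 FPKM in MI (log2 fold change -1.86 ± 0.11, adjusted p = 5.0e-10). Mmp15 had 18.6, 18.9 and 19.4 FPKM in sham at 1 week and 5.30, 6.17 and 6.32 FPKM in MI. For Mmp15, all MI libraries lay below all sham libraries, with a log2 fold change of -1.53 ± 0.11 (-2.32 against the median gene, adjusted p = 2.6e-09). Sham values of Mmp15 at 8 weeks were 17.8, 20.1 and 17.7 FPKM, and those of MI were 8.16, 8.95 and 6.39 FPKM. Mmp15 did not overlap between the groups and had a log2 fold change of -1.15 ± 0.11 (-1.68 against the median gene, adjusted p = 1.8e-07). Cardiomyocyte markers were also lower in MI, all 8 at 1 day and 1 week and 6 of 8 at 8 weeks, and their part in the result was not tested. Of 8 endothelial markers, 5 rose and 2 fell at 1 day (3 fell with either other scaling), and their sum was 228 to 277 FPKM in sham and 330 to 379 FPKM in MI. At 1 week, 5 rose and 1 fell, but 0 rose and 6 fell with median-ratio factors, and 0 and 4 with quantile normalization. At 8 weeks these numbers were 2 and 1 as deposited, 0 and 6, and 1 and 3. Over all tested genes, 39.7%, 72.8% and 70.4% rose as deposited in order of stage, and 30.6%, 16.5% and 10.6% fell. The numbers of all tested genes called with the other scalings are given above with the counts of the members. The part of the endothelial markers in the result was not tested either.

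Mmp16, Mmp17 and Mmp25 encode other membrane MMPs, the last of them known from leukocytes. Mmp16 was between 0.0337 and 0.155 FPKM in the sham libraries and rose to 4.29 ± 0.756 FPKM in MI at 1 week (log2 fold change 2.26 ± 0.14, 1.47 against the median gene, adjusted p = 1.1e-09) and to 0.875 ± 0.496 FPKM at 8 weeks (log2 fold change 0.80 ± 0.14, 0.28 against the median gene, adjusted p = 9.7e-05). Mmp17 rose to 4.18 ± 0.823 FPKM at 1 week, from 0.520 ± 0.0284 FPKM (log2 fold change 1.76 ± 0.12, 0.97 against the median gene, adjusted p = 1.7e-09), and to 1.60 ± 0.406 FPKM at 8 weeks (log2 fold change 0.77 ± 0.12, 0.25 against the median gene, adjusted p = 2.2e-05), where it was not called with quantile normalization (0.11). Mmp25 was at 0.0461 ± 0.0122 FPKM in sham and 4.76 ± 1.39 FPKM in MI at 1 day (log2 fold change 2.44 ± 0.12, adjusted p = 1.1e-10), and had a log2 fold change of 0.45 (-0.34 against the median gene, adjusted p = 0.0019) at 1 week and 0.19 (-0.34 against the median gene, adjusted p = 0.15) at 8 weeks. The call at 1 week was lost with quantile normalization (0.17). Exons of Mmp25 share 205 bases with Bicdl2 on the opposite strand.

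Among the remaining MMPs, Mmp19 rose at each stage, by amounts that the tests between stages did not separate. It encodes a secreted MMP of broad substrate range. Mmp19 at 1 day was at 0.775, 0.932 and 1.19 FPKM in sham and 8.52, 13.8 and 11.8 FPKM in MI. MI libraries of Mmp19 were all higher than sham, and the log2 fold change was 2.63 ± 0.27 (adjusted p = 3.5e-07). At 1 week, Mmp19 was at 0.667, 0.424 and 0.465 FPKM in sham and at 12.3, 11.0 and 10.1 FPKM in MI. Mmp19 was above sham in every MI library, with a log2 fold change of 3.00 ± 0.27 (2.21 against the median gene, adjusted p = 4.2e-08). Mmp19 had 0.488, 0.499 and 0.348 FPKM in sham at 8 weeks and 6.47, 6.36 and 18.7 FPKM in MI. Mmp19 was higher in each MI library, at a log2 fold change of 2.83 ± 0.27 (2.31 against the median gene, adjusted p = 2.9e-07). None of the 3 differences between stages was called, and that between 1 week and 1 day was 0.36 ± 0.39 (adjusted p = 0.41). The effect of Mmp19 at 8 weeks was called lower than at 1 week once the third MI library at 8 weeks was left out (-0.64 ± 0.20, adjusted p = 0.011, against difference -0.17 ± 0.39, adjusted p = 0.74 with it, in a range of 0.011 to 0.91 over the alternatives). Its exons share 1062 bases with Tmem198b on the opposite strand, so reads of both genes may be mixed.

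Mmp23 encodes a small MMP that is anchored in the membrane by its front end. Sham values of Mmp23 at 1 day were 1.49, 1.66 and 1.93 FPKM, and those of MI were 1.64, 1.17 and 1.39 FPKM. Mmp23 overlapped between sham and MI, with a log2 fold change of -0.17 ± 0.20 (adjusted p = 0.48). Mmp23 at 1 week was at 2.77, 2.58 and 2.68 FPKM in sham and 91.5, 79.6 and 77.0 FPKM in MI. Mmp23 did not overlap between the groups and had a log2 fold change of 4.51 ± 0.20 (3.71 against the median gene, adjusted p = 7.0e-11). At 8 weeks, Mmp23 was at 1.55, 1.07 and 1.58 FPKM in sham and at 26.4, 29.9 and 58.1 FPKM in MI. MI libraries of Mmp23 were all higher than sham, and the log2 fold change was 3.95 ± 0.20 (3.42 against the median gene, adjusted p = 6.9e-10). Mmp23 had a higher effect at 1 week than at 1 day (difference 4.67 ± 0.29, adjusted p = 6.3e-09), and the difference between 8 weeks and 1 week did not pass the test (difference -0.56 ± 0.29, adjusted p = 0.12) unless the third MI library at 8 weeks was left out (-0.90 ± 0.16, adjusted p = 1.6e-04, in a range of 1.6e-04 to 0.47 over the alternatives). At 1 week Mmp23 thus had the third highest mean of the MMPs, after Mmp2 and Mmp14. Its exons share 72 bases with Mib2 on the same strand. Mmp28 encodes epilysin and fell at 1 day, from 1.27 ± 0.190 to 0.520 ± 0.158 FPKM (log2 fold change -0.58 ± 0.17, adjusted p = 0.0068). It rose at 1 week to 3.24 ± 0.304 FPKM (log2 fold change 1.39 ± 0.17, 0.59 against the median gene, adjusted p = 1.4e-06) and at 8 weeks to 2.51 ± 1.04 FPKM (log2 fold change 0.89 ± 0.17, 0.37 against the median gene, adjusted p = 2.4e-04), where it was not called with quantile normalization (0.18).

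The 4 TIMP genes showed 3 patterns. Timp1 rose at each stage, Timp2 and Timp3 rose at 1 week and 8 weeks, and Timp4 fell at each stage. Timp1 encodes a soluble inhibitor of most MMPs. Timp1 had 11.1, 15.5 and 9.58 FPKM in sham at 1 day and 301, 403 and 307 FPKM in MI. Timp1 was above sham in every MI library, with a log2 fold change of 4.71 ± 0.31 (adjusted p = 3.0e-09). Sham values of Timp1 at 1 week were 2.53, 1.64 and 4.38 FPKM, and those of MI were 188, 232 and 158 FPKM. Timp1 was higher in each MI library, at a log2 fold change of 5.70 ± 0.31 (4.91 against the median gene, adjusted p = 4.1e-10). Timp1 at 8 weeks was at 0.619, 1.27 and 2.04 FPKM in sham and 35.9, 46.5 and 87 FPKM in MI. For Timp1, all MI libraries lay above all sham libraries, with a log2 fold change of 4.58 ± 0.31 (4.06 against the median gene, adjusted p = 1.2e-08). Its FPKM in MI was thus highest at 1 day, while the log2 fold change was numerically highest at 1 week. The sham libraries differed as well: Timp1 was higher in sham at 1 day than in sham at 1 week (log2 difference 1.80 ± 0.31, adjusted p = 0.0070). The difference in effect between 1 week and 1 day was not called (difference 0.99 ± 0.45, adjusted p = 0.056), but it was with a pseudocount of 0.1 or without any 1 of 6 libraries, among them the third sham library at 1 week (adjusted p from 0.020 to 0.67 over the alternatives).

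Timp2 encodes the inhibitor that also takes part in the activation of the Mmp2 product. At 1 day, Timp2 was at 14.4, 15.4 and 19.9 FPKM in sham and at 11.9, 11.6 and 11.3 FPKM in MI. Timp2 did not overlap between the groups and had a log2 fold change of -0.47 ± 0.29 (adjusted p = 0.16). This lower level at 1 day was called with median-ratio factors (-0.58) and with quantile normalization (-0.69). It was also called in a fit of that stage alone (-0.47, adjusted p = 0.0036). The same held without the first (adjusted p = 0.012) or the third MI library at 8 weeks (adjusted p = 0.025). Timp2 had 22.0, 19.8 and 20.5 FPKM in sham at 1 week and 265, 237 and 241 FPKM in MI. MI libraries of Timp2 were all higher than sham, and the log2 fold change was 3.51 ± 0.29 (2.72 against the median gene, adjusted p = 1.5e-08). Sham values of Timp2 at 8 weeks were 15.4, 14.7 and 15.8 FPKM, and those of MI were 86.1, 177 and 319 FPKM. Timp2 was above sham in every MI library, with a log2 fold change of 3.39 ± 0.29 (2.86 against the median gene, adjusted p = 9.8e-08). Timp3 encodes the inhibitor that is bound to the matrix and also blocks ADAM and ADAMTS proteases. Timp3 at 1 day was at 30.2, 30.1 and 37.8 FPKM in sham and 47.0, 47.0 and 47.1 FPKM in MI. Timp3 was higher in each MI library, at a log2 fold change of 0.52 ± 0.30 (adjusted p = 0.14). This difference was called in a fit of that stage alone (0.52, adjusted p = 6.5e-04) and without the first (0.52, adjusted p = 0.0025) or the third MI library at 8 weeks (0.52, adjusted p = 0.040), in a range of 6.5e-04 to 0.31 over the alternatives. At 1 week, Timp3 was at 40.9, 33.0 and 29.9 FPKM in sham and at 315, 296 and 294 FPKM in MI. For Timp3, all MI libraries lay above all sham libraries, with a log2 fold change of 3.10 ± 0.30 (2.31 against the median gene, adjusted p = 9.0e-08). Timp3 had 44.8, 48.3 and 46.9 FPKM in sham at 8 weeks and 121, 297 and 453 FPKM in MI. Timp3 did not overlap between the groups and had a log2 fold change of 2.42 ± 0.30 (1.89 against the median gene, adjusted p = 3.8e-06). In the 8-week MI libraries both genes were lowest in the first and highest in the third library.

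Timp4 encodes the TIMP that is known for its high level in the heart. Sham values of Timp4 at 1 day were 10.7, 14.9 and 19.99 FPKM, and those of MI were 8.67, 7.16 and 9.73 FPKM. MI libraries of Timp4 were all lower than sham, and the log2 fold change was -0.73 ± 0.25 (adjusted p = 0.016). This fall was not called without the third sham library (-0.53, adjusted p = 0.091) or the second MI library (-0.63, adjusted p = 0.065), in a range of 0.0045 to 0.091 over the alternatives. Timp4 at 1 week was at 9.48, 9.62 and 13.7 FPKM in sham and 0.421, 0.448 and 1.33 FPKM in MI. Timp4 was below sham in every MI library, with a log2 fold change of -2.81 ± 0.25 (-3.60 against the median gene, adjusted p = 3.5e-08). At 8 weeks, Timp4 was at 27.6, 32.4 and 34.5 FPKM in sham and at 9.95, 13.3 and 6.5 FPKM in MI. Timp4 was lower in each MI library, at a log2 fold change of -1.62 ± 0.25 (-2.14 against the median gene, adjusted p = 3.0e-05). The fall was deeper at 1 week than at 1 day (difference -2.07 ± 0.35, adjusted p = 9.5e-05) and less deep at 8 weeks than at 1 week (difference 1.19 ± 0.35, adjusted p = 0.013). Timp4 was also higher in sham at 8 weeks than in sham at 1 week (log2 difference 1.46 ± 0.25, adjusted p = 0.0098). Beside it, cardiomyocyte markers had a median log2 fold change of -1.62, -3.39 and -1.11 at the 3 stages, and their part in the result was not tested.

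**Figure D4:**
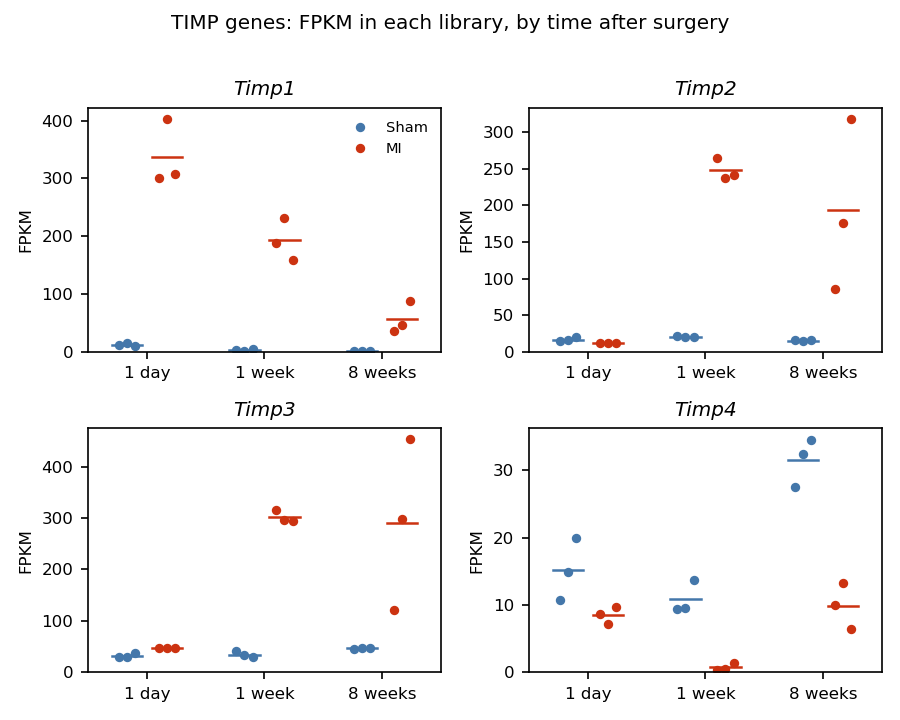
FPKM of the 4 TIMP genes in each library at the 3 times after surgery, with sham in blue, MI in red and a line at the mean of 3 libraries. Timp1 in MI falls from 1 day to 8 weeks, Timp2 and Timp3 in MI are highest at 1 week in the mean, and all MI points of Timp4 lie below the sham points of their stage.

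The ADAMTS proteases that cut versican and other large proteoglycans divided by stage. Adamts1, Adamts4 and Adamts9 had their larger rise at 1 day, while Adamts5 and Adamts15 fell at 1 day and rose later. Adamts1 had 5.77, 5.56 and 8.97 FPKM in sham at 1 day and 56.5, 65.1 and 54.3 FPKM in MI. For Adamts1, all MI libraries lay above all sham libraries, with a log2 fold change of 2.96 ± 0.17 (adjusted p = 5.5e-10). Sham values of Adamts1 at 1 week were 12.6, 12.3 and 11.3 FPKM, and those of MI were 33.4, 26.5 and 31.6 FPKM. Adamts1 did not overlap between the groups and had a log2 fold change of 1.26 ± 0.17 (0.47 against the median gene, adjusted p = 3.1e-06). Adamts1 at 8 weeks was at 10.5, 12.2 and 13.9 FPKM in sham and 13.5, 19.2 and 21.2 FPKM in MI. The groups overlapped for Adamts1, which had a log2 fold change of 0.51 ± 0.17 (-0.02 against the median gene, adjusted p = 0.012). Its rise at 8 weeks was not called without the first sham library (0.41, adjusted p = 0.057) or the third MI library (0.38, adjusted p = 0.060, in a range of 7.6e-04 to 0.97 over the alternatives). The direction turned with median-ratio factors (-0.18) and quantile normalization (-0.00588, adjusted p = 0.97). The effect at 1 week was lower than at 1 day (difference -1.70 ± 0.24, adjusted p = 1.5e-05). In sham, Adamts1 was lower at 1 day than at 1 week (log2 difference -0.78 ± 0.17, adjusted p = 0.028).

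Adamts4 encodes aggrecanase-1 and changed from less than 1 FPKM in all sham libraries. At 1 day, Adamts4 was at 0.297, 0.466 and 0.522 FPKM in sham and at 37.5, 56.0 and 44.8 FPKM in MI. Adamts4 was above sham in every MI library, with a log2 fold change of 5.03 ± 0.19 (adjusted p = 7.8e-12). Adamts4 had 0.433, 0.293 and 0.326 FPKM in sham at 1 week and 7.99, 9.38 and 5.15 FPKM in MI. Adamts4 was higher in each MI library, at a log2 fold change of 2.62 ± 0.19 (1.83 against the median gene, adjusted p = 4.2e-09). Sham values of Adamts4 at 8 weeks were 0.406, 0.388 and 0.467 FPKM, and those of MI were 0.234, 0.470 and 1.01 FPKM. Adamts4 overlapped between sham and MI, with a log2 fold change of 0.12 ± 0.19 (-0.41 against the median gene, adjusted p = 0.57). The direction at 8 weeks turned with median-ratio factors (-0.14), with quantile normalization (-0.40, adjusted p = 0.028) and without the third MI library (-0.0761, adjusted p = 0.71). Over the alternatives the adjusted p at 8 weeks ran over 0.028 to 0.71. The effect fell from 1 day to 1 week (difference -2.40 ± 0.27, adjusted p = 1.6e-06) and again to 8 weeks (difference -2.5 ± 0.27, adjusted p = 2.1e-05).

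Adamts9 at 1 day was at 2.89, 3.06 and 3.69 FPKM in sham and 15.3, 20.4 and 16.6 FPKM in MI. Adamts9 did not overlap between the groups and had a log2 fold change of 2.12 ± 0.19 (adjusted p = 5.7e-08). At 1 week, Adamts9 was at 3.79, 2.91 and 3.70 FPKM in sham and at 7.71, 7.70 and 6.59 FPKM in MI. MI libraries of Adamts9 were all higher than sham, and the log2 fold change was 0.90 ± 0.19 (0.11 against the median gene, adjusted p = 2.6e-04). This rise was not called with median-ratio factors (0.09) or quantile normalization (0.05). Adamts9 had 4.18, 3.47 and 4.51 FPKM in sham at 8 weeks and 1.91, 3.18 and 4.76 FPKM in MI. The groups overlapped for Adamts9, which had a log2 fold change of -0.29 ± 0.19 (-0.81 against the median gene, adjusted p = 0.16). This lower level was called with median-ratio factors (-0.87), with quantile normalization (-0.99) and without the third MI library (-0.53, adjusted p = 0.0066, in a range of 3.1e-06 to 0.83 over the alternatives). Adamts9 was thus above sham at 1 day and, relative to the median gene, below sham at 8 weeks. Its exons overlap 3 genes on the opposite strand, with 424 shared bases for Gm15737.

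Adamts5 encodes aggrecanase-2. Sham values of Adamts5 at 1 day were 2.29, 2.46 and 3.35 FPKM, and those of MI were 1.57, 1.55 and 1.55 FPKM. Adamts5 was lower in each MI library, at a log2 fold change of -0.52 ± 0.21 (adjusted p = 0.039). The call was lost when any 1 of 5 libraries of that stage was left out, among them the third sham library (-0.40, adjusted p = 0.15, in a range of 4.9e-04 to 0.15 over the alternatives). Adamts5 at 1 week was at 3.63, 2.83 and 2.89 FPKM in sham and 10.9, 10.6 and 11.2 FPKM in MI. For Adamts5, all MI libraries lay above all sham libraries, with a log2 fold change of 1.54 ± 0.21 (0.74 against the median gene, adjusted p = 4.6e-06). At 8 weeks, Adamts5 was at 2.43, 2.5 and 2.48 FPKM in sham and at 4.54, 7.17 and 12.6 FPKM in MI. Adamts5 did not overlap between the groups and had a log2 fold change of 1.29 ± 0.21 (0.77 against the median gene, adjusted p = 5.5e-05). Adamts5 had a higher effect at 1 week than at 1 day (difference 2.06 ± 0.30, adjusted p = 2.2e-05). Adamts5 and Adamts1 lie close together on chromosome 16, at 85858157 to 85901125 and 85793827 to 85803113, and at 1 day Adamts5 fell where Adamts1 rose. Exons of Adamts5 share 493 bases with Gm46558 on the opposite strand.

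Adamts8 and Adamts15, which lie close together on chromosome 9, were at lower levels. Adamts8 rose at each stage, from at most 0.210 ± 0.0920 FPKM in a sham group to 0.936 ± 0.154, 1.95 ± 0.414 and 1.17 ± 0.467 FPKM in MI in order of stage (log2 fold change 0.68 (adjusted p = 2.7e-04), 1.28 (0.49 against the median gene, adjusted p = 1.9e-07) and 0.87 (0.35 against the median gene, adjusted p = 2.7e-05)). Adamts15 fell at 1 day, from 1.87 ± 0.114 to 0.776 ± 0.141 FPKM (log2 fold change -0.70 ± 0.22, adjusted p = 0.0090). It was at 3.32 ± 0.180 FPKM in MI at 1 week (log2 fold change 0.89 (0.10 against the median gene, adjusted p = 0.0010)) and 3.86 ± 2.37 FPKM at 8 weeks (0.97 (0.45 against the median gene, adjusted p = 7.3e-04)), against 1.33 ± 0.262 and 1.31 ± 0.201 FPKM in sham. The rise at 1 week was not called with median-ratio factors (0.23) or quantile normalization (0.05), nor that at 8 weeks with the latter (0.26).

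The procollagen N-proteinases remove the front propeptide of fibrillar procollagens so that they can form fibrils. Adamts2 was the most abundant of them. Adamts2 had 2.27, 2.65 and 3.06 FPKM in sham at 1 day and 4.59, 4.48 and 4.37 FPKM in MI. MI libraries of Adamts2 were all higher than sham, and the log2 fold change was 0.59 ± 0.30 (adjusted p = 0.088). This difference was called with a pseudocount of 0.1 (0.74, adjusted p = 0.044), in a fit of that stage alone (0.59, adjusted p = 3.8e-04) and without the first (0.59, adjusted p = 0.0044) or the third MI library at 8 weeks (0.59, adjusted p = 0.0077), in a range of 3.8e-04 to 0.25 over the alternatives. Sham values of Adamts2 at 1 week were 4.61, 3.41 and 3.44 FPKM, and those of MI were 132, 124 and 128 FPKM. Adamts2 was above sham in every MI library, with a log2 fold change of 4.75 ± 0.30 (3.96 against the median gene, adjusted p = 1.1e-09). Its mean at 1 week was the highest of any ADAMTS gene. Adamts2 at 8 weeks was at 2.10, 2.03 and 2.67 FPKM in sham and 11.5, 24.0 and 45.4 FPKM in MI. Adamts2 was higher in each MI library, at a log2 fold change of 2.9 ± 0.30 (2.38 against the median gene, adjusted p = 5.1e-07). Adamts2 had a higher effect at 1 week than at 1 day (difference 4.16 ± 0.42, adjusted p = 5.6e-07) and a lower effect at 8 weeks than at 1 week (difference -1.85 ± 0.42, adjusted p = 0.0026).

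Adamts14, which also trims procollagen, reached at most 3.69 FPKM in any library. It rose at 1 week from 0.390 ± 0.0636 to 2.94 ± 0.738 FPKM (log2 fold change 1.49 ± 0.12, 0.70 against the median gene, adjusted p = 1.6e-08), and its rise at 8 weeks (log2 fold change 0.32 ± 0.12, -0.20 against the median gene, adjusted p = 0.024) was not called with median-ratio factors (0.10) and turned with quantile normalization (-0.14). Adamts3 fell at 1 day from 0.619 ± 0.0318 to 0.133 ± 0.0424 FPKM (log2 fold change -0.52 ± 0.11, adjusted p = 4.5e-04). At 1 week it was at 1.49 ± 0.144 FPKM in MI (log2 fold change 0.61 ± 0.11, -0.18 against the median gene, adjusted p = 5.4e-05), a rise that was not called with median-ratio factors (0.12) and turned with quantile normalization (-0.08). At 8 weeks its log2 fold change was 0.46 (-0.07 against the median gene, adjusted p = 0.0011), which turned to -0.09 with quantile normalization.

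Adamts7 and Adamts12 encode proteases that cut cartilage oligomeric matrix protein. At 1 day, Adamts12 was at 0.242, 0.317 and 0.373 FPKM in sham and at 0.331, 0.451 and 0.393 FPKM in MI. Adamts12 overlapped between sham and MI, with a log2 fold change of 0.09 ± 0.24 (adjusted p = 0.76). Adamts12 had 0.744, 0.520 and 0.465 FPKM in sham at 1 week and 30.4, 28.4 and 19.3 FPKM in MI. Adamts12 did not overlap between the groups and had a log2 fold change of 4.08 ± 0.24 (3.29 against the median gene, adjusted p = 6.1e-10). Sham values of Adamts12 at 8 weeks were 0.274, 0.166 and 0.20 FPKM, and those of MI were 0.189, 0.661 and 2.07 FPKM. Adamts12 overlapped between sham and MI, with a log2 fold change of 0.59 ± 0.24 (0.06 against the median gene, adjusted p = 0.033). The lowest MI library was inside the sham range, and the rise was not called without any 1 of the sham libraries of that stage or without the third MI library (0.21, adjusted p = 0.24, in a range of 6.7e-04 to 0.66 over the alternatives). Without the first MI library it was 0.90, adjusted p = 6.7e-04. With median-ratio factors (0.34), with quantile normalization (0.09) and in a fit of that stage alone (0.59, adjusted p = 0.14) it was not called either. On the log2(FPKM + 1) scale, the drop of the effect from 1 week to 8 weeks was the largest of the tested members (difference -3.49 ± 0.34, adjusted p = 9.0e-06). This scale damps changes of genes near 0 FPKM, so the order depends on the pseudocount. Adamts7 fell at 1 day, from 2.78 ± 0.218 to 1.03 ± 0.132 FPKM (log2 fold change -0.90 ± 0.11, adjusted p = 3.6e-06). At 1 week it was at 2.61 ± 0.156 FPKM in sham and 4.82 ± 0.545 FPKM in MI (log2 fold change 0.69 ± 0.11, -0.10 against the median gene, adjusted p = 3.3e-05), where the direction turned with median-ratio factors (-0.07) and with quantile normalization (-0.19). At 8 weeks its log2 fold change was -0.03 (-0.56 against the median gene, adjusted p = 0.79).

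Adamts10, Adamts6 and Adamts17 belong to the ADAMTS proteases tied to fibrillin microfibrils or close to them in sequence, and Adamts16 is a further relative. Adamts10 at 1 day was at 3.35, 3.51 and 3.69 FPKM in sham and 1.88, 1.91 and 2.21 FPKM in MI. Adamts10 was below sham in every MI library, with a log2 fold change of -0.59 ± 0.11 (adjusted p = 2.4e-04). At 1 week, Adamts10 was at 4.41, 3.48 and 3.77 FPKM in sham and at 35.7, 30.6 and 35.1 FPKM in MI. Adamts10 was higher in each MI library, at a log2 fold change of 2.83 ± 0.11 (2.04 against the median gene, adjusted p = 2.7e-11). Adamts10 had 2.95, 2.41 and 2.32 FPKM in sham at 8 weeks and 22.5, 18.8 and 26.6 FPKM in MI. For Adamts10, all MI libraries lay above all sham libraries, with a log2 fold change of 2.72 ± 0.11 (2.2 against the median gene, adjusted p = 1.2e-10). It turned from a fall at 1 day to a rise at 1 week (difference 3.42 ± 0.16, adjusted p = 7.8e-10), with no overlap at any stage, and the difference between 8 weeks and 1 week did not pass the test (difference -0.11 ± 0.16, adjusted p = 0.59).

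Sham values of Adamts16 at 1 day were 0, 0.00565 and 0.0113 FPKM, and those of MI were 0.0116, 0 and 0.00522 FPKM. Adamts16 overlapped between sham and MI, with a log2 fold change of 0.00 ± 0.15 (adjusted p = 1.0). Here 0 is a value listed at 0. Adamts16 at 1 week was at 0.0344, 0.0115 and 0.0226 FPKM in sham and 10.0, 9.62 and 5.56 FPKM in MI. MI libraries of Adamts16 were all higher than sham, and the log2 fold change was 3.16 ± 0.15 (2.37 against the median gene, adjusted p = 1.1e-10). At 8 weeks, Adamts16 was at 0.00558, 0 and 0 FPKM in sham and at 0.0681, 0.0856 and 0.399 FPKM in MI. Adamts16 was above sham in every MI library, with a log2 fold change of 0.23 ± 0.15 (-0.29 against the median gene, adjusted p = 0.16). The rise at 8 weeks was called only with a pseudocount of 0.1 (1.29, adjusted p = 0.0021) or without the third MI library at 1 week (0.23, adjusted p = 0.023), in a range of 0.0021 to 0.56 over the alternatives. Adamts17 rose at 1 week, from 0.155 ± 0.0447 to 3.67 ± 0.656 FPKM (log2 fold change 2.01 ± 0.08, 1.22 against the median gene, adjusted p = 3.8e-11), with log2 fold changes of -0.01 (adjusted p = 0.94) at 1 day and 0.09 (-0.43 against the median gene, adjusted p = 0.33) at 8 weeks. The fall of the effect from 1 week to 8 weeks was called for both Adamts16 (difference -2.93 ± 0.21, adjusted p = 7.5e-07) and Adamts17 (difference -1.92 ± 0.12, adjusted p = 1.5e-07). Adamts6 rose at each stage, to 0.975 ± 0.192, 4.43 ± 0.547 and 1.98 ± 0.798 FPKM in MI in order of stage, with log2 fold changes of 0.48 (adjusted p = 0.0087), 1.98 (1.18 against the median gene, adjusted p = 5.4e-09) and 1.08 (0.56 against the median gene, adjusted p = 8.8e-06).

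Adamts13 encodes the protease that cuts von Willebrand factor and is known mainly from liver and endothelial cells. It varied little, at 2.14 ± 0.0511 FPKM in sham and 2.0 ± 0.327 FPKM in MI at 1 day (log2 fold change -0.07 ± 0.12, adjusted p = 0.64) and at 1.65 ± 0.335 and 1.87 ± 0.224 FPKM at 1 week (log2 fold change 0.12 ± 0.12, -0.67 against the median gene, adjusted p = 0.35). At 8 weeks it was called higher, at 2.16 ± 0.454 against 1.51 ± 0.262 FPKM (log2 fold change 0.33 ± 0.12, -0.19 against the median gene, adjusted p = 0.021), but the direction turned with median-ratio factors (-0.13) and quantile normalization (-0.37). Exons of Adamts13 share 433 bases with Gm36649 on the opposite strand.

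Of the ADAMTS-like genes, whose products bind microfibrils and have no protease domain, Adamtsl2 and Adamtsl3 had the higher log2 fold changes at 1 week. Adamtsl2 had 2.04, 1.98 and 1.94 FPKM in sham at 1 day and 1.36, 1.17 and 1.52 FPKM in MI. Adamtsl2 was lower in each MI library, at a log2 fold change of -0.35 ± 0.25 (adjusted p = 0.22). This lower level was called with median-ratio factors (-0.44) and quantile normalization (-0.50). It was also called in a fit of that stage alone (-0.35, adjusted p = 0.0026) and without the third MI library at 8 weeks (-0.35, adjusted p = 0.028). Sham values of Adamtsl2 at 1 week were 4.96, 3.48 and 4.14 FPKM, and those of MI were 94.6, 80.2 and 108 FPKM. For Adamtsl2, all MI libraries lay above all sham libraries, with a log2 fold change of 4.20 ± 0.25 (3.41 against the median gene, adjusted p = 7.4e-10). Adamtsl2 at 8 weeks was at 2.97, 2.52 and 3.11 FPKM in sham and 27.0, 39.0 and 78.1 FPKM in MI. Adamtsl2 did not overlap between the groups and had a log2 fold change of 3.53 ± 0.25 (3.01 against the median gene, adjusted p = 1.6e-08). Adamtsl2 had a higher effect at 1 week than at 1 day (difference 4.55 ± 0.35, adjusted p = 5.1e-08).

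At 1 day, Adamtsl3 was at 0.644, 0.879 and 1.07 FPKM in sham and at 0.729, 0.455 and 0.598 FPKM in MI. Adamtsl3 overlapped between sham and MI, with a log2 fold change of -0.22 ± 0.33 (adjusted p = 0.57). Adamtsl3 had 0.830, 0.688 and 0.635 FPKM in sham at 1 week and 30.6, 25.8 and 22.3 FPKM in MI. Adamtsl3 was above sham in every MI library, with a log2 fold change of 3.97 ± 0.33 (3.18 against the median gene, adjusted p = 1.6e-08). Sham values of Adamtsl3 at 8 weeks were 0.590, 0.637 and 0.644 FPKM, and those of MI were 4.02, 8.90 and 20.9 FPKM. Adamtsl3 was higher in each MI library, at a log2 fold change of 2.66 ± 0.33 (2.14 against the median gene, adjusted p = 3.6e-06). Its effect at 8 weeks was lower than at 1 week (difference -1.31 ± 0.47, adjusted p = 0.031), a call that was lost with a pseudocount of 0.1 and without any 1 of 8 libraries, among them each sham library at 8 weeks (adjusted p from 4.0e-05 to 0.073 over the alternatives), and its 8-week MI libraries were lowest in the first and highest in the third. Adamtsl1 was at 1.95 ± 0.318 FPKM in MI at 1 week (log2 fold change 1.2 (0.41 against the median gene, adjusted p = 9.2e-05)) and 2.30 ± 1.65 FPKM at 8 weeks (1.29 (0.76 against the median gene, adjusted p = 8.1e-05)), against 0.280 ± 0.0175 and 0.246 ± 0.0430 FPKM in sham. At 1 day it was not called (-0.17 (adjusted p = 0.50)).

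Adamtsl4 and Adamtsl5 changed less. Adamtsl4 is known to help hold the lens of the eye in place. Adamtsl4 at 1 day was at 5.29, 6.73 and 5.64 FPKM in sham and 9.18, 8.12 and 6.85 FPKM in MI. For Adamtsl4, all MI libraries lay above all sham libraries, with a log2 fold change of 0.39 ± 0.13 (adjusted p = 0.014). At 1 week, Adamtsl4 was at 5.75, 6.77 and 6.10 FPKM in sham and at 12.6, 11.9 and 13.3 FPKM in MI. Adamtsl4 did not overlap between the groups and had a log2 fold change of 0.92 ± 0.13 (0.13 against the median gene, adjusted p = 5.6e-06). Adamtsl4 had 5.70, 6.32 and 5.81 FPKM in sham at 8 weeks and 10.4, 11.9 and 15.9 FPKM in MI. MI libraries of Adamtsl4 were all higher than sham, and the log2 fold change was 0.96 ± 0.13 (0.44 against the median gene, adjusted p = 8.2e-06). The call at 1 week was lost with median-ratio factors (0.05), and both that at 1 day (0.13) and that at 1 week (0.10) with quantile normalization. The call at 1 day was also lost without the first sham library (0.33, adjusted p = 0.062) or the first MI library (0.30, adjusted p = 0.070), in a range of 0.0024 to 0.32 over the alternatives.

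Adamtsl5 was the most abundant ADAMTS-like gene in sham. Sham values of Adamtsl5 at 1 day were 12.6, 13 and 11.6 FPKM, and those of MI were 12.4, 9.59 and 11.7 FPKM. Adamtsl5 overlapped between sham and MI, with a log2 fold change of -0.14 ± 0.15 (adjusted p = 0.42). Adamtsl5 at 1 week was at 12.9, 13.7 and 16.1 FPKM in sham and 7.92, 10.3 and 12.3 FPKM in MI. Adamtsl5 was lower in each MI library, at a log2 fold change of -0.46 ± 0.15 (-1.25 against the median gene, adjusted p = 0.0075). The fall was not called without the first MI library, which was the lowest (-0.31, adjusted p = 0.055, in a range of 1.1e-05 to 0.055 over the alternatives). At 8 weeks, Adamtsl5 was at 15.8, 13.2 and 15.3 FPKM in sham and at 27.5, 19.9 and 20.8 FPKM in MI. For Adamtsl5, all MI libraries lay above all sham libraries, with a log2 fold change of 0.58 ± 0.15 (0.05 against the median gene, adjusted p = 0.0020). This rise was not called with quantile normalization (0.06) and turned to -0.12 with median-ratio factors. The effect was higher at 8 weeks than at 1 week (difference 1.04 ± 0.21, adjusted p = 0.0011).

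The 4 members that were not tested did not reach 1 FPKM in 3 libraries. Mmp24, a membrane MMP known from the nervous system, had at most 0.243 FPKM in any library and was listed at 0 in 5 of the 9 sham libraries. Mmp27 was highest in MI at 1 week, at 0.782, 0.857 and 0.989 FPKM, and at most 0.0590 FPKM in sham. Adamts20 was highest in MI at 1 week, at 0.549, 0.452 and 0.287 FPKM, and Adamts19 had at most 0.405 FPKM.

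Summed over genes, the 4 groups rose to different extents. Since FPKM is scaled by transcript length, the sums of these groups can be set side by side within a library. Between sham and MI they are not corrected for the shift of the median gene, which was 0.09, 0.79 and 0.52 in log2 at the 3 stages. The summed MMP level was 44.2 ± 5.05, 48.0 ± 2.32 and 38.5 ± 1.05 FPKM in sham in order of stage (mean ± SD, n = 3), and 198 ± 26.6, 640 ± 54.9 and 304 ± 135 FPKM in MI. At 1 day Mmp9 and Mmp8 held 37.3% and 23.4% of the mean MMP level in MI. At 1 week Mmp2 and Mmp14 held 39.6% and 36.6%, and at 8 weeks Mmp2 held 43.7%. The TIMP sum was 76.5 ± 10.4, 69.2 ± 5.45 and 94.8 ± 5.67 FPKM in sham and 404 ± 55.8, 743 ± 41.8 and 550 ± 307 FPKM in MI. Timp1 held 81.7% to 86.0% of it in the MI libraries at 1 day, and Timp3 led it in all other libraries.

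The ADAMTS sum was between 25.2 and 37.9 FPKM in all sham libraries and reached 137 ± 17.1, 278 ± 14.7 and 94.0 ± 35.1 FPKM in MI at the 3 stages, led by Adamts1 at 1 day and by Adamts2 at 1 week. The ADAMTS-like sum was 21.4 ± 1.22 FPKM in sham and 21.4 ± 2.19 FPKM in MI at 1 day, and 145 ± 13.7 and 97 ± 37.4 FPKM in MI at 1 week and 8 weeks. The TIMP level per MMP level was 1.67 to 1.77 in sham and 1.98 to 2.09 in MI at 1 day. At 1 week it was 1.41 to 1.5 in sham and 1.13 to 1.21 in MI, and at 8 weeks 2.31 to 2.64 in sham and 1.29 to 2.05 in MI. The libraries of MI and sham did not overlap at any stage, with MI above sham at 1 day and below it at 1 week and 8 weeks. An exact permutation test of 3 against 3 libraries cannot give a p below 0.1, and these ratios of mRNA levels, which say nothing of bound enzyme and inhibitor, were not tested.

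**Figure D5:**
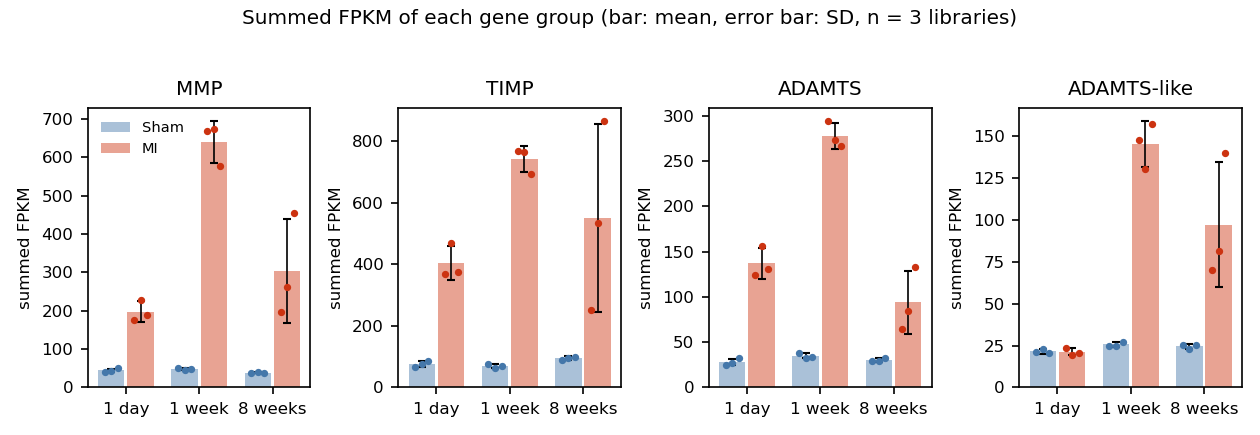
Summed FPKM of the MMP, TIMP, ADAMTS and ADAMTS-like genes at the 3 times after surgery in sham (blue) and MI (red), with bars for the mean, error bars for the SD of 3 libraries and a point for each library. The MMP sum in MI is 198, 640 and 304 FPKM, and the ADAMTS-like sum leaves the sham level only at 1 week and 8 weeks.

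Genes that act with these proteases were read from lists of the plasminogen system, ADAM proteases, procollagen processing, other MMP regulators, ADAMTS substrates and microfibril proteins. Of the plasminogen system, which activates several MMP precursors, Plaur, the urokinase receptor, rose at 1 day from 1.34 ± 0.288 to 114 ± 31.6 FPKM (log2 fold change 5.59 ± 0.22, adjusted p = 1.1e-11), and Serpine2, an inhibitor of serine proteases, rose at 1 week from 9.62 ± 1.45 to 158 ± 11.3 FPKM (log2 fold change 3.92 ± 0.24, 3.12 against the median gene, adjusted p = 8.0e-10). Of the ADAM proteases, which release proteins from the cell surface, 7, 8 and 6 of 8 rose in order of stage and none fell. Over all tested genes 39.7%, 72.8% and 70.4% rose, and 30.6%, 16.5% and 10.6% fell. At 8 weeks 2 were called lower with median-ratio factors or quantile normalization, where 4899 and 5120 of all 12858 tested genes were. Adam8, known from leukocytes, rose at 1 day from 0.913 ± 0.293 to 87.6 ± 31.5 FPKM (log2 fold change 5.48 ± 0.30, adjusted p = 3.1e-10), and Adam12 at 1 week from 0.260 ± 0.0760 to 22.5 ± 5.74 FPKM (log2 fold change 4.19 ± 0.25, 3.40 against the median gene, adjusted p = 8.2e-10).

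In procollagen processing, 3 of 7 genes (39.7% of all tested genes) rose and 1 (30.6%) fell at 1 day, 7 (72.8%) rose at 1 week and 6 (70.4%) at 8 weeks. With either other scaling 3 were called lower at 1 day and 1 at 8 weeks. Of the 12858 tested genes, 4782 and 4899 were lower at these stages with median-ratio factors, and 5401 and 5120 with quantile normalization. Bmp1, which removes the other end of procollagen, rose at 1 week from 6.23 ± 0.349 to 119 ± 16.9 FPKM (log2 fold change 4.05 ± 0.18, 3.26 against the median gene, adjusted p = 7.7e-11), and Pcolce, its enhancer, from 21.7 ± 4.28 to 235 ± 9.51 FPKM (log2 fold change 3.39 ± 0.22, 2.60 against the median gene, adjusted p = 1.8e-09). Of the 5 tested regulators, 2 rose and 1 fell at 1 day, 3 rose and 1 fell at 1 week, and 4 rose and 1 fell at 8 weeks. Over all tested genes 39.7%, 72.8% and 70.4% rose, and 30.6%, 16.5% and 10.6% fell. With either other scaling 2 were called lower at 1 day and 2 higher at 8 weeks. Over all tested genes these numbers were 4782 and 4452 with median-ratio factors, and 5401 and 3976 with quantile normalization. Reck, a membrane-anchored inhibitor of MMPs, was not called at 1 day and rose at 1 week from 1.32 ± 0.126 to 11.4 ± 1.5 FPKM (log2 fold change 2.41 ± 0.30, 1.62 against the median gene, adjusted p = 1.4e-06). Of the 6 tested ADAMTS substrates, 2 rose and 1 fell at 1 day (39.7% and 30.6% of all tested genes). At that stage 1 and 3 rose with quantile normalization and median-ratio factors, where 4396 and 5121 of all tested genes did. All 6 rose at 1 week and at 8 weeks under each of these scalings, where 72.8% and 70.4% of all tested genes rose as deposited. Over all tested genes, 5311 and 3976 rose at these stages with quantile normalization, and 5356 and 4452 with median-ratio factors. Comp, the substrate of the Adamts7 and Adamts12 products, rose at 1 week from 1.83 ± 0.413 to 247 ± 25.2 FPKM (log2 fold change 6.46 ± 0.30, 5.67 against the median gene, adjusted p = 9.1e-11) and at 8 weeks from 1.02 ± 0.270 to 569 ± 349 FPKM (log2 fold change 7.96 ± 0.30, 7.44 against the median gene, adjusted p = 3.7e-11).

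Of the 10 microfibril and elastic fibre genes, 3 rose and 2 fell at 1 day, 9 rose and 1 fell at 1 week, and 9 rose at 8 weeks. Over all tested genes 39.7%, 72.8% and 70.4% rose, and 30.6%, 16.5% and 10.6% fell. With either other scaling 5 were called lower at 1 day and 1 at 8 weeks. Of the 12858 tested genes, 4782 and 4899 were lower at these stages with median-ratio factors, and 5401 and 5120 with quantile normalization. Eln, which encodes elastin, the substrate of the Mmp12 product, rose at 1 week from 43.9 ± 5.99 to 1317 ± 304 FPKM (log2 fold change 4.86 ± 0.31, 4.06 against the median gene, adjusted p = 1.4e-09) and at 8 weeks from 8.65 ± 0.951 to 58.9 ± 40.7 FPKM (log2 fold change 2.43 ± 0.31, 1.91 against the median gene, adjusted p = 5.0e-06). Its sham mean at 1 day was 10.5 ± 1.68 FPKM, so the sham level was highest at 1 week and the baseline of these rises was not the same.

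In the sham libraries, the baseline of every comparison, few members differed with time after surgery. Timp1 and Adamts1 differed between 1 day and 1 week (2 of 40, 1.42% of all tested genes), and Timp4 between 8 weeks and 1 week (1 of 40, 0.848% of all tested genes), with the values given above.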

How the data were processed

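Messenger RNA of mouse left ventricle was sequenced from TruSeq libraries in 6 groups of 3, and groups were taken from the sample labels. Values of FPKM for each gene were deposited by the authors, and beside them their normalized values on the log2 scale, whose columns share 1 median. The submitters' processing notes name TopHat2 2.0.13, Bowtie2 2.2.3, Cufflinks 2.2.1 and the mm10 build. Fold changes and p-values of the authors' own comparisons were in the same table and were not used. Since FPKM holds no counts, no depth or counting interval can be given.

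Of 16415 genes, the 12858 that reached 1 FPKM in 3 or more libraries were kept. FPKM with a pseudocount of 1 was put on the log2 scale and fitted with limma 3.58.1 in R 4.3.3 (empirical Bayes with a mean trend), with all 6 groups in 1 model, 12 residual degrees of freedom and Benjamini-Hochberg adjustment over all tested genes, called below 0.05. The same model gave the differences between stages. This test was chosen for normalized values. Scripts were tested on simulated data. Tables and figures were made with Python 3.11.15, pandas 2.3.3 and matplotlib 3.10.9. The values of each library are given for the 26 members that reached a mean of 5 FPKM in any group and were called at any stage, and the other members are described by means. From each pathway list, up to 3 genes with the largest change were eligible to be named. The members and the lists were chosen with earlier results of these data known. Alternatives were a pseudocount of 0.1, no filter, a mean of at least 5 FPKM, quantile normalization, median-ratio factors, the authors' normalized values, each stage alone, a replicate block, no trend, and leaving out each library. Promoters came from RefSeq on GRCm38.p6. Overlapping exons were found in the same annotation, and reads of overlapping genes may be shared. The count for the plasminogen system and some overlaps are not reported here.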

Additional observations from a re-analysis of the deposited data

Results flagged for a closer look

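The effect of MI differed between stages, by the limma test of the difference itself, for members as follows, beside the shares of all tested genes in the same direction. From 1 day to 1 week it was higher for 26 of 40 members and lower for 8 (60.0% and 11.8%), from 1 week to 8 weeks higher for 5 and lower for 16 (17.1% and 29.9%), and from 1 day to 8 weeks higher for 23 and lower for 7 (51.8% and 11.9%). The following 9 members fell at one stage and rose at another. The share of all tested genes that did so is not given here, so this count is not read as a trait of the members. Between 1 day and 1 week the log2 effect rose by 4.73 for Mmp2, 3.42 for Adamts10, 2.93 for Mmp11, 2.06 for Adamts5, 1.97 for Mmp28, 1.59 for Adamts7 and 1.13 for Adamts3. The rises of Adamts7 and Adamts3 at 1 week, of Adamts15 at 1 week and of Adamtsl5 at 8 weeks were not called with median-ratio factors or with quantile normalization, nor were those of Adamts3, Adamts15 and Mmp28 at 8 weeks with the latter, and the falls of Mmp2 and Adamts5 at 1 day were lost without single libraries. Between 1 day and 8 weeks it rose by 1.67 for Adamts15, and between 1 week and 8 weeks by 1.04 for Adamtsl5.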

How the results depend on the processing

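Of the calls at the 3 stages in order, 21 of 25, 29 of 38 and 24 of 34 held in every alternative in which the gene was tested. With quantile normalization the members lower in MI numbered 5 at 1 week and 5 at 8 weeks, and 5 differed between sham at 1 day and 1 week. The authors' normalized values gave 5, 5 and 5 for the same counts of members. With median-ratio factors, 4 were lower at 8 weeks, and 4 and 4 differed between the sham stages. Over all 12858 tested genes, quantile normalization called 5101 and 5120 lower at 1 week and 8 weeks. Median-ratio factors called 4899 lower at 8 weeks. Between sham at 1 day and 1 week, 217 were higher and 203 lower with quantile normalization, and 233 and 264 with median-ratio factors. Between sham at 8 weeks and 1 week the latter gave 252 and 214. For the other alternatives of this paragraph the shares of all tested genes are not given here. A pseudocount of 0.1 gave 2 for sham at 8 weeks against 1 week. A mean of at least 5 FPKM, which tests fewer genes, left 4 members lower at 1 day, 19 higher at 1 week, 17 higher at 8 weeks, 11 with a higher effect at 1 week than at 1 day, 6 with a lower effect at 8 weeks than at 1 week, 13 with a higher effect at 8 weeks than at 1 day and 3 with a larger rise at 1 week.

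The direction turned for Mmp3 at 1 week with quantile normalization (-0.057) and the authors' normalized values (-0.055), and for Adamts1 at 8 weeks with these (-0.0059 and -0.0063) and median-ratio factors (-0.18). It turned for Adamts4 at 8 weeks with these 3 scalings (-0.40, -0.36 and -0.14) and without the third MI library (range with 1 library left out -0.076 to 0.28), and for Adamtsl5 at 8 weeks with median-ratio factors (-0.12). Adamts16 at 1 day, listed near 0 in all libraries, ran from -0.0044 to 0.0040 with 1 library left out, and turned without the third sham or the second or the third MI library (0.00020 in the last case). The cause of these changes was not tested.

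Leaving out 1 library at a time gave 7 to 13 members lower at 1 day, 28 to 33 higher at 8 weeks, 15 to 26 with a lower effect at 8 weeks than at 1 week and 11 to 21 with a larger rise at 1 week, and 1 to 5 and 0 to 4 that differed between sham at 1 day or 8 weeks and sham at 1 week. The values 26 and 21 came without the third MI library at 8 weeks. The shares of all tested genes are not given for any of these fits, so their counts are not read as results about the members. Between sham at 1 day and 1 week, 1 member differed without any 1 of 5 sham libraries of these stages, and 5 did without the first or the third MI library at 8 weeks.

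Replicate numbers are shared by all groups, but same-numbered MI and sham libraries correlated at only -0.092 to 0.29, so the numbers were not read as pairs. With a replicate block, the members that rose and fell numbered 15 and 10, then 35 and 3, then 32 and 2 over the stages, and none of the 78 tests of the 26 members described by library changed its call. The shares of all tested genes in that fit are not given here. FPKM without counts limits what can be said of members below 1 FPKM.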
